A study of Rattus norvegicus with 19 samples.

Results

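Hippocampal RNA from rats that carried 1 copy of the 16p11.2 syntenic interval (Del/+) was compared with RNA from rats that carried both copies (wt). The comparison took the 4 Del/+ and the 6 wt libraries of a set of 19, each library assigned by the name its submitters gave it in the description field. All animals of this comparison were Sprague-Dawley males from a cross of Del/+ with Dup/+ parents on an outbred background, and each library stands for 1 hippocampal sample. The age of these animals was not given in the labels. Del/+ animals were heterozygous for a Cas9-made deletion that runs from Sult1a1 to Spn on rat chromosome 1, and wt animals carried no engineered allele. The library named wt replicate 5 carries a conflicting entry (Dup/+) in the genotype field. It was kept as wt by its description, and its median interval gene differed from the wt mean by -0.04 on the log2 scale.

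The human 16p11.2 interval lies between repeated blocks that recombine with one another, so that children are born with 1 or with 3 copies of it, and both changes are recurrent causes of autism and other neurodevelopmental disorders. Loss of a copy of a gene usually leaves the remaining copy to be transcribed at its own rate, unless a feedback loop adjusts it. The genes of the interval act in ERK signalling (Mapk3), protein turnover (Kctd13), synaptic release (Prrt2, Doc2a), glycolysis (Aldoa) and DNA upkeep (Slx1b, Ino80e), and the hippocampus, where memory of places and objects is formed, expresses most of them.

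The deletion was cut with a pair of guide RNAs whose target sequences are printed because they set the ends of the deletion.
cr595: gcaatctcacgtgtctgatgg
cr598: gtgacatcgtgaccctgctgg
Both target sequences are 21 bases long as listed in the study's supplementary methods. Their positions in the genome build of the counts were not looked up, since no genome was used here.

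Counted reads ranged from 24458600 to 38760600 per library, and between 19091 and 20042 genes had a read. The share of alignment lines set aside because a read aligned to more than 1 place was 40.1% to 47.6% in wt. In Del/+ it was 73.1%, 76.3%, 63.9% and 41.6% in replicates 1 to 4. This share is therefore high in 3 of the 4 Del/+ libraries and at the wt level in Del/+ replicate 4. Levels are given as CPM, the reads of a gene relative to all counted reads of its library, with TMM scaling, and 15440 of 32623 genes had enough reads to be tested. The fit was edgeR's quasi-likelihood test over all 19 libraries, of which those of Dup/+ and Del/Dup rats entered the filter on low counts, the scaling and the estimate of the spread but not the contrast, and a gene was called where its p, adjusted by Benjamini-Hochberg over all genes tested, was under 0.05. The study describes hippocampi of 4 Del/+ rats and of 6 wt littermates, the numbers of libraries here. The labels do not name the animal behind each library, so p-values measure the spread between these samples, which may be partly technical. In bulk tissue, fewer cells of a type and less RNA per cell cannot be told apart.

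Of all genes tested, 119 (0.771%) were called, 47 higher in Del/+ (0.304%) and 72 lower (0.466%). The interval supplied 26 of the 72 lower genes and none of the higher ones. At an unadjusted p under 0.05, 8.77% of the genes tested were higher and 9.68% were lower. Every Del/+ library lay above every wt library for 2.23% of genes, and below every wt library for 2.70%. DESeq2, run as an alternative, gave an adjusted p to 9241 genes and called 6.94% of them, 2.89% higher and 4.05% lower, the shares against which its counts below are to be read.

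Of the 32 genes listed in the interval, 28 were tested and 26 of these fell in Del/+ (adjusted p under 0.05, edgeR), each with all 4 Del/+ libraries below all 6 wt libraries. The median log2 fold change over the 28 was -1.01, or 49.8% of the wt level, beside 0.00048 over all genes tested. Single genes ranged from -1.28 to -0.77, which is 41.1% to 58.6% of wt. Loss of 1 of 2 copies with no change at the other would give a log2 value of -1. The 95% interval of the difference held -1 in 24 of the 28 genes, lay below it in 3 and above it in 1. Standard errors ran from 0.0403 to 0.409 on the log2 scale with a median of 0.0814.

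Taken library by library, the median interval gene was at -0.91, -1.06, -1.09 and -1.04 (log2, against the wt mean) in Del/+ replicates 1 to 4. In the wt libraries it was between -0.05 and 0.02. The interval counts of all 4 Del/+ libraries thus matched their labels, whether the share of multiply aligned reads was high or, as in replicate 4, low.

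**Figure D1:**
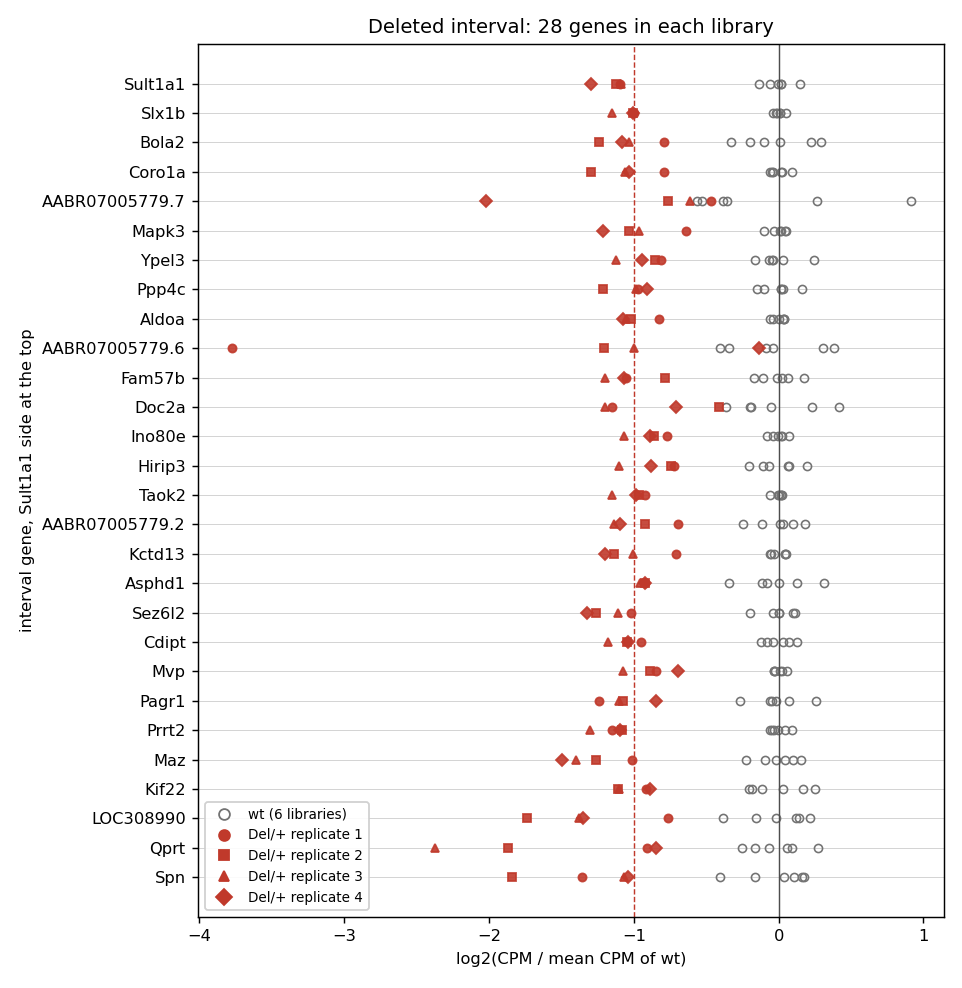
Level of the 28 tested interval genes in each library, as log2 of CPM over the mean CPM of wt, with genes ordered from the Sult1a1 side (top) to Spn (bottom). Open circles are the 6 wt libraries, filled red symbols are Del/+ replicates 1 to 4 and the dashed line marks -1. Del/+ symbols gather at the dashed line and stand clear of wt for 26 genes, and overlap wt for AABR07005779.6 and AABR07005779.7.

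Among the signalling enzymes, Mapk3 encodes ERK1, the kinase at the end of the Ras-ERK relay. It was at 88.5 to 98.4 CPM in wt with a median of 95.6, and at 60.9, 46.3, 48.5 and 40.98 CPM in Del/+ replicates 1 to 4. Its log2 fold change was -0.95 (SE 0.0817, adjusted p = 2.4e-07). Replicate 1 was the highest Del/+ library and still far below wt. Taok2, a kinase of the stress-activated pathways that shapes dendrites, was at 213 to 225 CPM in wt (median 223). It was at 117, 113, 99.7 and 112 CPM in Del/+ replicates 1 to 4. The groups were widely apart and the log2 fold change of -1.003 was the most precise of the interval (SE 0.0403, adjusted p = 2.6e-12). Ppp4c, the catalytic subunit of protein phosphatase 4, fell to 49.7% of wt (log2 -1.01, SE 0.072, adjusted p = 1.47e-08).

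Kctd13 is the adaptor that brings RhoA, a small GTPase of the cytoskeleton, to the Cul3 ubiquitin ligase. Its level was 79.6 to 85.9 CPM in wt (median 83.2) and 50.7, 37.7, 41.3 and 36.1 CPM in Del/+ replicates 1 to 4. The log2 fold change was -0.9996 (SE 0.0812, adjusted p = 9.54e-08), with a 95% interval of -1.17 to -0.83. As for Mapk3, replicate 1 was the least reduced Del/+ library.

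The 4 genes of the synapse and of membrane traffic had log2 fold changes from -1.17 to -0.83 with a median of -1.09. Prrt2, a presynaptic protein whose loss causes paroxysmal movement disorders and infantile seizures, was at 153 to 170 CPM in wt (median 157) and at 71.5, 75.1, 64.6 and 74.6 CPM in Del/+ replicates 1 to 4. Its log2 fold change was -1.15 (SE 0.0495, adjusted p = 4.47e-12), and its 95% interval, -1.26 to -1.05, lay below -1. Every Del/+ library was under 1 copy's worth of the wt mean. Sez6l2, a neuronal membrane protein, was at 483 to 599 CPM in wt (median 554) and at 273, 231, 257 and 222 CPM in Del/+ replicates 1 to 4. It fell by 1.17 on the log2 scale (SE 0.0809, adjusted p = 1.04e-08). Coro1a, an actin-binding coronin best known from immune cells, fell to 48.9% of wt (log2 -1.03, adjusted p = 2.91e-08). Doc2a, a calcium sensor of spontaneous transmitter release, was the least reduced called gene of the interval. Its wt libraries ran from 7.53 to 12.9 CPM (median 8.92) and its Del/+ libraries were at 4.36, 7.26, 4.21 and 5.91 CPM in replicates 1 to 4. Replicate 2 came close to the lowest wt library without reaching it, and the log2 fold change was -0.83 (SE 0.189, adjusted p = 0.0409). Its call was the least stable of the interval and was lost in 20 of 31 alternatives, 8 of them leaving out 1 wt or Del/+ library, with no change of direction.

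Of 7 genes of the nucleus, DNA and chromosomes, 6 were tested and all 6 fell, by a median of 0.97 on the log2 scale. Maz, a zinc finger factor that binds GC-rich promoters, was the most reduced gene of the interval. It was at 30.6 to 39.8 CPM in wt and at 17.6, 14.9, 13.5 and 12.7 CPM in Del/+ replicates 1 to 4. Its log2 fold change of -1.28 (SE 0.105, adjusted p = 1.04e-07) had a 95% interval of -1.51 to -1.07, and all 4 libraries were below 50.0% of the wt mean, replicate 1 only just. Slx1b, a subunit of a nuclease that cuts branched DNA, fell to 48.8% of wt and Ino80e, of the INO80 chromatin remodeller, to 53.9%. Hirip3, a histone-binding protein, stood at 55.2% of wt, Pagr1, a partner of a histone methyltransferase complex, at 48.9%, and Kif22, a chromosome-arm motor, at 52.9%. The seventh, Tbx6, a T-box factor of the early embryo, had 5 to 11 reads per wt library and 3 to 5 per Del/+ library and was not tested.

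Of the 7 metabolic genes 6 were tested and each fell, with a median log2 fold change of -1.04. Aldoa, the muscle and brain aldolase of glycolysis, had 1350 to 1444 CPM in wt (median 1423) and 794, 694, 680 and 668 CPM in Del/+ replicates 1 to 4. The groups were far apart, at a log2 value of -0.99 (SE 0.0471, adjusted p = 2.21e-11). Cdipt, which makes phosphatidylinositol, fell to 48.2% of wt, Fam57b, a regulator of ceramide synthesis, to 49.3%, and Bola2, of iron-sulphur cluster handling, to 49.7%. Sult1a1, a sulphotransferase at the edge of the deletion, fell to 45.6% of wt (log2 -1.13, SE 0.0851). Qprt, which leads from quinolinic acid to NAD, had 1.26 to 1.81 CPM in wt and 0.796, 0.41, 0.289 and 0.833 CPM in Del/+ replicates 1 to 4. Its Del/+ libraries fell into a lower and a higher pair and its log2 fold change, -1.26, was accordingly loose (SE 0.243, adjusted p = 0.00797). Gdpd3, a lysophospholipase, had 0 to 3 reads in any library and was not tested.

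Spn, the sialophorin of leukocytes at the far edge, was at 2.55 to 3.82 CPM in wt and fell to 42.7% of wt (log2 -1.23, SE 0.162, adjusted p = 9.92e-05). Mvp, the major vault protein, was the only gene whose 95% interval lay above -1, from -0.9996 to -0.74. It was at 16.97 to 18.1 CPM in wt and at 9.66, 9.39, 8.24 and 10.7 CPM in Del/+ replicates 1 to 4. Replicate 3 was thus below 50.0% of the wt mean and the other libraries above. Ypel3 fell to 52.5% of wt and Asphd1 to 52.6%. Of the genes without a gene name, AABR07005779.2 (51.9% of wt) and LOC308990 (46.4%) fell, while AABR07005779.6 (log2 -0.83, SE 0.409, adjusted p = 0.195) and AABR07005779.7 (-0.77, SE 0.367, adjusted p = 0.21) had under 1.44 CPM in every library and were not called. Zg16 had at most 2 reads and LOC102552638 at most 7 in any library, and neither was tested.

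The next comparison asked whether the loss stopped at the borders of the interval. Of the 50 nearest tested genes on each side in the order of the RefSeq GRCr8 annotation, 1 of 100 was called, beside 0.771% of all genes. The median log2 fold change of these 100 was -0.02. Of the 10 nearest on the Sult1a1 side, 3 had an unadjusted p under 0.05 and were lower, and none of the 10 nearest on the Spn side did. Sh2b1, an adaptor of insulin and leptin signalling, was at 54.6 to 60.2 CPM in wt and at 53.1, 52.5, 53.0 and 52.6 CPM in Del/+ replicates 1 to 4. Its groups did not overlap but were close, and the log2 fold change of -0.13 missed the call (adjusted p = 0.094). Atxn2l, an RNA-binding relative of ataxin 2, had a log2 fold change of -0.18 (adjusted p = 0.147) and Eif3c, a translation initiation subunit, one of -0.12 (adjusted p = 0.124). DESeq2 called Sh2b1 (adjusted p = 0.0296) and Eif3c (adjusted p = 0.0458) lower, and over the 57 of these 100 neighbours to which it gave an adjusted p it called 1 higher and 3 lower. The 16 genes of the list of flanking genes summed to 802 to 826 CPM in wt. In Del/+ replicates 1 to 4 they summed to 780, 757, 774 and 783 CPM. All Del/+ sums were thus below wt, by a small amount beside the halving inside the interval. The median gene of the list gave another order. In Del/+ replicates 1 to 4 it was at 0.03, -0.10, -0.05 and -0.03 (log2, against the wt mean), and in wt between -0.05 and 0.02. Of the 16 genes, 8 had a positive and 8 a negative log2 fold change.

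The neighbour called by edgeR was Tgfb1i1, a focal adhesion adaptor also known as Hic-5, the 41st tested gene past Spn. It was at 10.3 to 12.4 CPM in wt (median 11.6) and at 6.61, 7.92, 8.002 and 8.38 CPM in Del/+ replicates 1 to 4. All Del/+ libraries were below all wt libraries, and the log2 value was -0.56 (SE 0.101, adjusted p = 0.00802), which is 67.8% of wt. Slc5a2, a renal glucose transporter next to it, had a log2 value of -0.51 and was not called (adjusted p = 0.139).

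**Figure D2:**
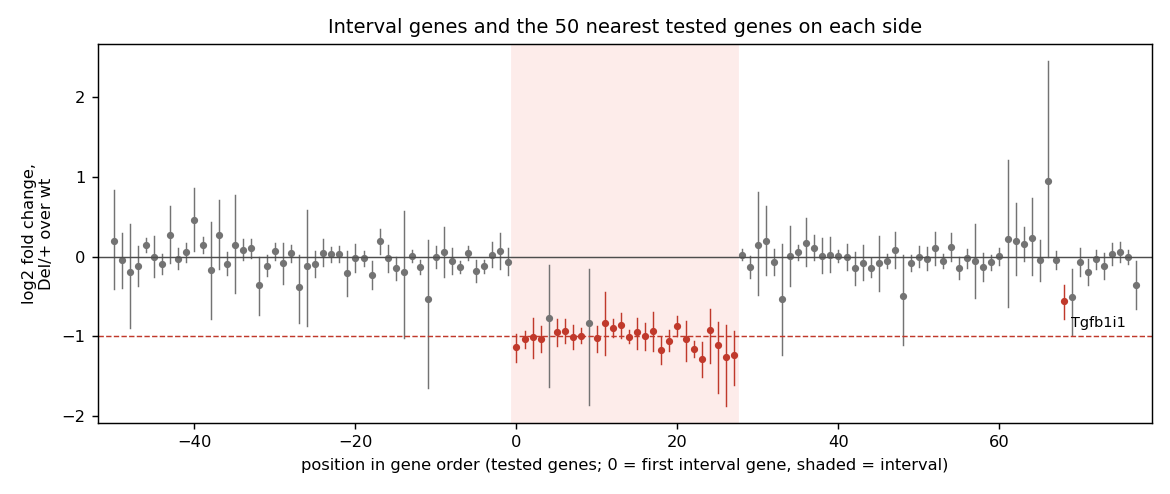
Log2 fold change of Del/+ over wt with its 95% interval (vertical lines) for the interval genes (shaded) and the 50 nearest tested genes on each side, in gene order. Red marks called genes, the dashed line -1. Values drop to about -1 at the first interval gene and return to about 0 at the first gene past the interval, and Tgfb1i1 is the only neighbour called by edgeR.

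Outside the interval 93 genes were called, 47 higher and 46 lower. Most differences were small: 63 of the 93 were under 0.5 on the log2 scale, with a median of 0.43 for the higher genes and -0.29 for the lower ones. Over a 2-fold change there were 13 higher genes and 2 lower genes. Groups did not overlap for 77 of the 93 (35 higher, 42 lower), beside 2.23% of all genes tested above wt and 2.70% below. The 93 were chosen for their difference between these same libraries, so a high count was largely built in. Of the 93, 80 could be placed on the RefSeq GRCr8 annotation, and they fell on 19 of 21 chromosomes. Chromosome 1 held 12 of them among 1683 tested genes (0.713%), beside 0.583% over all placed genes.

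The count of genes outside the interval depended on which libraries were compared. With the 3 Del/+ libraries of high multiple-alignment share alone, 27 genes outside the interval were called. Del/+ replicate 4 alone against wt gave 61, with its spread assumed to be that of the other groups. The 93 genes were chosen on these same libraries, so a kept direction was largely built in and is no independent check. It was the same for all 93 in the first of these fits and for 90 of 93 in the second. For the interval, the same fits called 25 and 19 genes at medians of -1.01 and -1.02. Without Del/+ replicate 2 only 20 genes outside the interval were called, and without Del/+ replicate 1 there were 236.

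Of the higher genes with a gene name, the smallest adjusted p belonged to Cd9, a tetraspanin of the cell surface that is rich in myelin-forming cells and vessels. It was at 39.8 to 46.8 CPM in wt (median 43.9) and at 55.6, 54.5, 56.5 and 63.5 CPM in Del/+ replicates 1 to 4. The groups were well apart, at a 1.32-fold higher level (log2 0.40, SE 0.052, adjusted p = 0.000143). Cd9, AABR07006310.1 and AABR07070225.1 were the only genes outside the interval called in every alternative that gave them a value.

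AABR07006310.1, a gene model without a gene name, had the clearest large difference. Its wt libraries were at 3.36 to 6.35 CPM (median 4.93) and its Del/+ libraries at 27.7, 24.98, 29.7 and 30.7 CPM in replicates 1 to 4. The 4 Del/+ libraries lay close together, replicate 4 with its low multiple-alignment share among them, at 5.80-fold the wt level (log2 2.54, SE 0.284, adjusted p = 1.53e-05). AABR07070225.1, likewise unnamed, moved the other way, from 1.152 to 1.75 CPM in wt to 0.381, 0.656, 0.526 and 0.349 CPM in Del/+ replicates 1 to 4. It fell to 37.8% of wt (log2 -1.40, SE 0.189, adjusted p = 6.76e-05).

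AABR07015081.2 took a share of reads that differed widely between libraries. It was at 394 to 2559 CPM in wt (median 990) and at 18877, 22705, 10129 and 1686 CPM in Del/+ replicates 1 to 4. The 3 libraries with a high share of multiply aligned reads were far above wt and replicate 4 was inside the wt range, so the groups overlapped although the gene was called (log2 3.51, SE 0.524, adjusted p = 0.000964). Polq, a DNA repair polymerase chosen after its values were seen, whose call was lost in 17 of 30 alternatives, showed the same order, with 0.685 to 1.44 CPM in wt and 5.16, 6.60, 4.45 and 1.16 CPM in Del/+ replicates 1 to 4. The part of alignment in these differences was not tested. The fourth unnamed gene under the naming rule, LOC100364769, rested on 2 to 11 reads per wt library and 15 to 33 per Del/+ library (log2 1.83, SE 0.376, adjusted p = 0.00548).

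Gabrb2, one of the higher genes, encodes the beta 2 subunit of the GABA-A receptor, the main inhibitory receptor of the brain. It was at 70.8 to 81.8 CPM in wt (median 76.3) and at 87.6, 98.4, 91.8 and 95.8 CPM in Del/+ replicates 1 to 4. The groups did not overlap (log2 0.29, SE 0.0613, adjusted p = 0.0288). Lgi2, a secreted protein whose relative Lgi1 is an epilepsy gene, rose 1.57-fold (log2 0.65, adjusted p = 0.018) with Del/+ values of 53.9, 94.96, 55.6 and 73.8 CPM against 39.4 to 48.2 CPM in wt. Adcy8, a calcium-stimulated adenylyl cyclase, rose 1.40-fold (adjusted p = 0.0206), though its lowest Del/+ library, at 29.6 CPM, was just under the highest wt library at 29.8 CPM. Scn1a, the sodium channel of Dravet syndrome, chosen after its values were seen, was also higher (log2 0.40, SE 0.0903, adjusted p = 0.0417). Of 31 alternatives, the call was lost in 18 for Scn1a, 9 for Gabrb2, 9 for Adcy8 and 7 for Lgi2.

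Larger rises were seen in Rnf152, a ubiquitin ligase of lysosomes, and Mybpc1, a myosin-binding protein of muscle. Rnf152 was at 4.70 to 8.84 CPM in wt (median 5.82) and at 9.38, 31.996, 11.4 and 22.6 CPM in Del/+ replicates 1 to 4 (log2 1.51, SE 0.281, adjusted p = 0.00995). Mybpc1 was at 0.667 to 1.75 CPM in wt and at 2.11, 4.31, 2.68 and 2.98 CPM in Del/+ replicates 1 to 4 (log2 1.40, SE 0.228, adjusted p = 0.00185). For both genes every Del/+ library exceeded wt, and replicate 2 was the highest. The Rnf152 call was lost in 6 of 31 alternatives and that of Mybpc1 in 3 of 30. With the level of Mbp, a myelin gene that was also highest in Del/+ replicates 2 and 4, as a covariate, the log2 value of Rnf152 was 0.83 (adjusted p = 0.444) and that of Mybpc1 1.24 (adjusted p = 0.0868). Slc16a1, the lactate carrier MCT1, rose 1.21-fold, Jam3, a junctional adhesion molecule, 1.25-fold and Stxbp3, a syntaxin-binding protein of secretion, 1.24-fold. Trim59 (1.39-fold), Pls1 (1.35-fold), an actin-bundling plastin, and Rtraf (1.19-fold) were also higher. Of 31 alternatives, the call was lost in 6 for Slc16a1 and Pls1, 8 for Jam3, Trim59 and Rtraf and 10 for Stxbp3, for each of these with the level of Mbp as a covariate among others.

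The lower genes outside the interval were smaller in effect and mostly well expressed. Neurl1, a neuronal ubiquitin ligase of dendrites, was at 184 to 204 CPM in wt (median 194) and at 166, 145, 157 and 139 CPM in Del/+ replicates 1 to 4. All Del/+ libraries were below wt, at 78.1% of its level (log2 -0.36, SE 0.0595, adjusted p = 0.00403). Fam189b, a membrane protein, stood at the same level, 78.2% of wt (adjusted p = 0.00591). Nectin1, an adhesion molecule of synaptic junctions, fell the most of the 12, from 95.7 to 146 CPM in wt to 84.1, 68.0, 83.3 and 63.4 CPM in Del/+ replicates 1 to 4 (log2 -0.67, SE 0.122, adjusted p = 0.00909). Grin2c, the NR2C subunit of the NMDA receptor, was at 95.2 to 110 CPM in wt and at 85.4, 77.8, 80.5 and 87.5 CPM in Del/+. It fell by 0.30 on the log2 scale (adjusted p = 0.0137). Mpp2, a membrane guanylate kinase scaffold, fell to 85.5% of wt, Caskin1, a partner of the scaffold Cask, to 82.6%, Mical2, an actin-oxidising enzyme, to 82.3%, and Pip5k1c, a synaptic phosphoinositide kinase, to 82.3%. Tmem63c (83.6%), a membrane channel, Fkbp11 (79.9%), a prolyl isomerase of the secretory pathway, and Oaf (82.5%) were the others, beside Tgfb1i1. Of 31 alternatives, the call was lost in 1 for Neurl1, 2 for Fam189b, 3 for Tgfb1i1, 4 for Mpp2, Mical2, Tmem63c and Fkbp11, 5 for Grin2c, 6 for Nectin1, Caskin1 and Pip5k1c and 7 for Oaf. For all 12 the fit with the level of Mbp as a covariate was among these.

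Beyond the naming rule there were 63 further called genes apart from Gabrb2 and Opalin, and those that follow were chosen after their values were seen. Among the lower ones were Kcnip2, a partner of A-type potassium channels, Kcng1, a silent potassium channel subunit, and Cacnb3, a calcium channel subunit. Kcnip2 was at 18.6 to 29.2 CPM in wt and at 15.6, 12.1, 14.1 and 15.5 CPM in Del/+ replicates 1 to 4, 63.9% of wt (adjusted p = 0.0359). Kcng1 stood at 72.3% of wt (adjusted p = 0.0284) and Cacnb3 at 85.7% (adjusted p = 0.023), and for all 3 the groups did not overlap. Src, a tyrosine kinase, Camkk2, a calcium-regulated kinase, Map3k10, a kinase upstream of JNK, and Cdk5r1, the activator of Cdk5, had log2 fold changes from -0.28 to -0.21, and the groups overlapped for Cdk5r1. Their calls were lost in 19, 15, 21 and 12 of 31 alternatives, in that order, and for all 4 with the level of Ttr or of Mbp as a covariate and with the Del/+ libraries of high or of low multiple-alignment share alone. Disc1, a scaffold first found at a translocation in a family with psychiatric illness, was at 2.03 to 2.64 CPM in wt and at 1.70, 1.40, 1.63 and 1.34 CPM in Del/+ replicates 1 to 4 (log2 -0.63, SE 0.146, adjusted p = 0.0395). Its call was lost in 16 of the 30 alternatives that gave it a value, with no change of direction. Ucp2, an uncoupling protein of mitochondria, was at 20.6 to 32.1 CPM in wt and at 18.6, 10.9, 17.5 and 19.3 CPM in Del/+ (log2 -0.71, adjusted p = 0.0284), clear of wt in every library. Higher genes included Akap12, a kinase anchor (log2 0.50, adjusted p = 0.0432), Acadm, of fatty acid oxidation (0.23, adjusted p = 0.0364), and Tf, the transferrin that oligodendrocytes make (0.41, adjusted p = 0.0421), whose lowest Del/+ library overlapped wt. The call was lost in 15 of 31 alternatives for Kcnip2, 10 each for Kcng1, Cacnb3 and Ucp2, 18 for Akap12, 15 for Acadm and 20 for Tf.

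**Figure D3:**
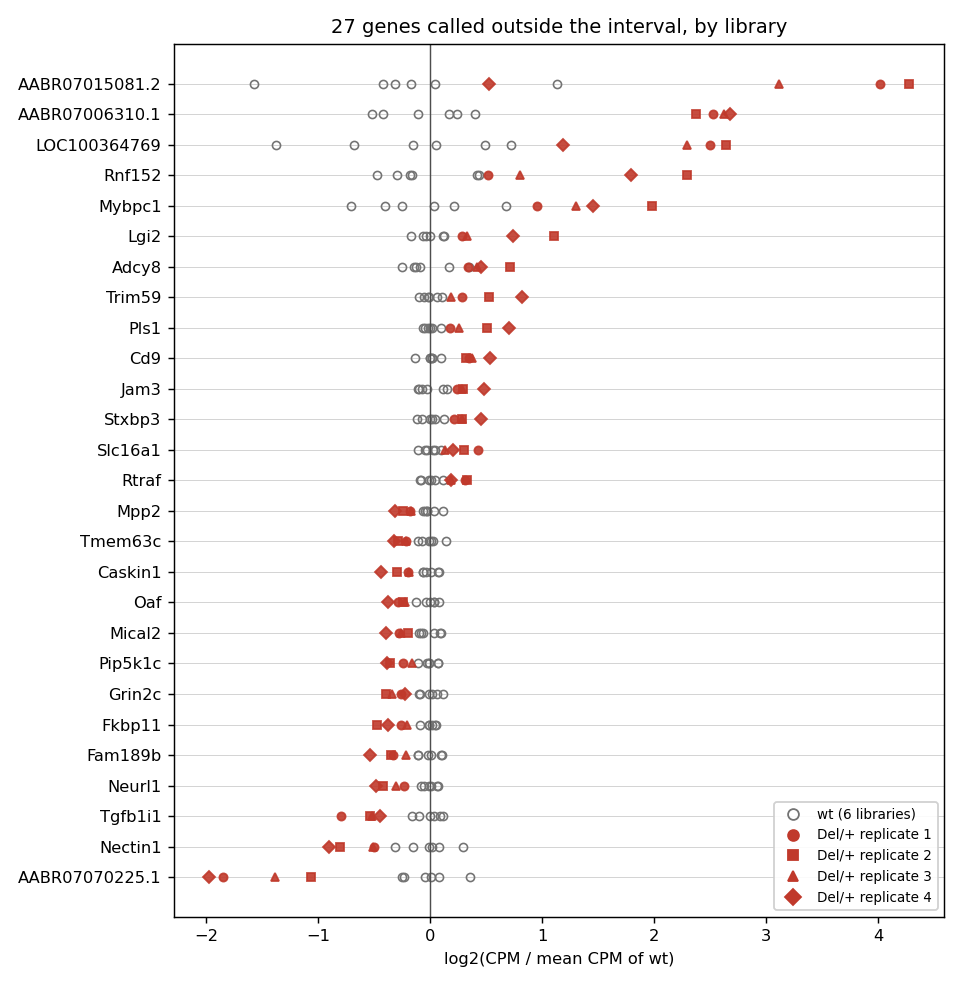
Level of 27 named genes called outside the interval in each library, as log2 of CPM over the mean CPM of wt. Open circles are the 6 wt libraries and filled red symbols Del/+ replicates 1 to 4. Del/+ stands clear of wt for 25 of the 27, the exceptions being AABR07015081.2, where replicate 4 lies among the wt libraries, and Adcy8, where replicate 1 falls just short of the highest wt library. The genes were chosen for their difference between these same libraries.

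Pathways in which interval genes act were then read for their other members, which have both copies. Of 41 tested genes of the ERK cascade around Mapk3, none was called by edgeR, while DESeq2 called 2 higher and 4 lower. By unadjusted p under 0.05, 3 were higher and 8 lower, beside 8.77% and 9.68% of all genes, and the median log2 fold change was -0.05. Map2k1, the MEK1 kinase that activates the Mapk3 product, was at 356 to 400 CPM in wt (median 384) and at 367, 313, 342 and 338 CPM in Del/+ replicates 1 to 4. The groups overlapped and the log2 fold change was -0.17 (SE 0.0565, adjusted p = 0.125). Ntrk2, the BDNF receptor gene, had a log2 value of -0.000194 (adjusted p = 0.999).

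Around Kctd13, 22 genes of the Cul3 ligase and of RhoA signalling were tested and none was called by edgeR, while DESeq2 called 1 higher. By unadjusted p under 0.05, 6 were higher and 1 lower, with a median of 0.05. The median gene of this list was at 0.04 to 0.07 (log2, against the wt mean) in Del/+ and at -0.03 to 0.03 in wt. Its sums overlapped, at 2565 to 2718 CPM in Del/+ and 2581 to 2781 CPM in wt. Cul3 itself was at 193 to 210 CPM in wt and at 208, 208, 210 and 211 CPM in Del/+ replicates 1 to 4, a log2 difference of 0.08 (SE 0.0362, adjusted p = 0.256). Klhl2, an actin-bound adaptor of the same ligase, was at -0.26 (adjusted p = 0.129). Among 14 other glycolysis genes around Aldoa none was called by edgeR or DESeq2, 1 had an unadjusted p under 0.05, and the median was -0.01. Its brain relative Aldoc was at 839 to 925 CPM in wt and at 967, 942, 875 and 839 CPM in Del/+ replicates 1 to 4, a log2 difference of 0.04 (SE 0.0424, adjusted p = 0.638).

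Of 44 synaptic genes, edgeR called 2, both higher and Gabrb2 among them, and DESeq2 called 2 higher and 7 lower. Without adjustment (p under 0.05), 4 were higher and 13 lower, with a list median of -0.09. The median was -0.06 without Del/+ replicate 4 and -0.16 with replicate 4 alone, and neither of the 2 higher genes was called in these fits, with the replicate number as a block or with the level of Mbp as a covariate. Camk2a, the calcium kinase of synaptic plasticity, had a log2 value of -0.28 (adjusted p = 0.0835), Grin1, the obligate NMDA receptor subunit, -0.21 (adjusted p = 0.0863) and Nrxn2, a presynaptic neurexin, -0.34 (adjusted p = 0.0628). Slc17a7, the vesicular glutamate transporter of excitatory neurons, was at -0.21 (adjusted p = 0.112). None of 17 immediate-early genes of neuronal activity was called by either tool, 2 had an unadjusted p under 0.05, and Arc, the best known of them, was at 89.98 to 153 CPM in wt and at 90.1, 135, 101 and 116 CPM in Del/+ replicates 1 to 4. EdgeR called none of 39 genes of oxidative phosphorylation, 27 ribosomal protein genes, 24 chaperones, 23 genes of cholesterol synthesis, 16 clock genes and 13 glucocorticoid targets, whose list medians lay between -0.04 and 0.06. In that order 10, 4, 2, 4, 2 and 4 of them had an unadjusted p under 0.05, and DESeq2 called 4, 0, 1, 1, 0 and 2. The 10 of oxidative phosphorylation were split by genome: 7 of 30 nuclear genes were higher and none lower (median 0.06), and 3 of 9 mitochondrial genes were lower and none higher (median -0.08). The median of the whole list was 0.06. It was 0.08 with the Del/+ libraries of high multiple-alignment share alone and -0.02 with replicate 4 alone.

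Markers of the cell types and of tissue next to the hippocampus were set beside these results. Hippocampal markers were present in every library. The CA1 marker Wfs1 was at 264 to 532 CPM in wt and at 295, 308, 274 and 451 CPM in Del/+. The dentate marker Prox1 was at 136 to 195 CPM in wt and at 130, 103, 135 and 134 CPM in Del/+. Prox1 was below wt in all 4 Del/+ libraries without a call (log2 -0.35, adjusted p = 0.257). Of 14 subfield markers 5 were lower at an unadjusted p under 0.05, none was higher and neither tool called any, with a median of -0.16. Without Del/+ replicate 2 the median was -0.10.

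Of 17 oligodendrocyte genes tested, 16 had a positive log2 fold change, 11 were higher at an unadjusted p under 0.05, and edgeR called 1 and DESeq2 8, with a median of 0.28. The 12 myelin genes had a median of 0.33 and the 5 lineage genes one of 0.06, of which 1 was higher and 1 lower at that p. The list summed to 5828 to 7480 CPM in wt and to 6807, 8828, 7054 and 10124 CPM in Del/+ replicates 1 to 4, so that replicates 1 and 3 were inside the wt range. Its median was 0.18 with the 3 Del/+ libraries of high multiple-alignment share alone, where none was called, and 0.57 with replicate 4 alone, where 6 were. The gene called by edgeR was Opalin, a membrane protein of mature myelin, at 75.0 to 105 CPM in wt (median 86.8) and at 99.3, 142, 114 and 174 CPM in Del/+ replicates 1 to 4. Replicate 1 overlapped wt, and the log2 fold change was 0.56 (SE 0.116, adjusted p = 0.0241). Mbp, myelin basic protein, was at 2224 to 2875 CPM in wt and at 2504, 3403, 2675 and 3731 CPM in Del/+ replicates 1 to 4 (adjusted p = 0.115). Replicates 2 and 4 were above all wt libraries, the other pair inside their range. With the level of Mbp as a covariate, 12 genes outside the interval were called. Of the 93 called without it, 10 kept their call. All 93 kept their direction, which was largely built in since they were chosen on these same libraries. Their medians were 0.30 for the higher and -0.25 for the lower genes, against 0.43 and -0.29. Among the genes named here, beside Rnf152, the log2 value shrank by over 1.5 times and the call was lost for Opalin (0.22), Lgi2 (0.39), Scn1a (0.21), Pls1 (0.22), Trim59 (0.28), Jam3 (0.20), Akap12 (0.30), Tf (0.20), Neurl1 (-0.24) and Caskin1 (-0.17).

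The choroid plexus, which lines the ventricle beside the hippocampus, was represented unequally in the Del/+ libraries. Of 19 tested markers 17 were higher at an unadjusted p under 0.05, of which edgeR called none and DESeq2 2, with a median of 2.37. Ttr, the transthyretin that the plexus secretes, was at 0.921 to 27.4 CPM in wt and at 5.12, 2.38, 1126 and 81.5 CPM in Del/+ replicates 1 to 4. Replicates 1 and 2 were inside the wt range, and replicates 3 and 4 above it. The summed markers were at 122 to 186 CPM in wt and at 141, 166, 1844 and 296 CPM in Del/+. The list median was 0.49 without replicate 3, 2.66 with the libraries of high multiple-alignment share alone and 1.08 with replicate 4 alone. With the level of Ttr as a covariate, 28 genes outside the interval were called. Of the 93 called without it, 25 kept their call. All 93 kept their direction, which was largely built in since they were chosen on these same libraries. Their medians were 0.43 and -0.29 as before. Motile cilia genes, which line the same ventricle, were higher at an unadjusted p under 0.05 for 8 of 32 and summed to 264 CPM in Del/+ replicate 3 against at most 205 CPM in wt. Their median was 0.37, at 0.46 with the libraries of high share alone and 0.05 with replicate 4 alone, and at 0.14 without replicate 3.

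A list of 15 genes typical of the thalamus, which lies under the hippocampus, was drawn up after the values were seen. Of 14 tested, 13 had a positive log2 fold change and 8 were higher at an unadjusted p under 0.05, of which edgeR called none and DESeq2 3, with a median of 0.40. The list summed to 127 to 154 CPM in wt and to 187, 191, 211 and 162 CPM in Del/+ replicates 1 to 4, every Del/+ library above every wt library. The median gene of the list gave another order: it was at 0.42, 0.16, 0.77 and -0.09 (log2, against the wt mean) in Del/+ replicates 1 to 4 and between -0.05 and 0.09 in wt, so that replicate 4 was below wt and the others above. The list median was 0.51 with the libraries of high multiple-alignment share alone and -0.09 with replicate 4 alone, and 0.26 without replicate 3. Slc17a6, the glutamate transporter of thalamic neurons, was at 12.5 to 23.05 CPM in wt and at 26.2, 33.2, 20.7 and 40.7 CPM in Del/+ (log2 0.81, adjusted p = 0.0718). The part of neighbouring tissue in the calls outside the interval was not tested.

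Astrocyte markers (11 tested, median -0.10), microglial markers (13, -0.12), interneuron markers (9, 0.05), markers of vessels and meninges (14, -0.06) and red cell genes (6, -0.12) held no gene called by edgeR, and DESeq2 called 1 interneuron gene and 1 gene of vessels and meninges. At an unadjusted p under 0.05, 3 microglial genes and 2 astrocyte genes were lower, 3 interneuron genes were higher, and genes of vessels and meninges were split, 2 and 2. The interneuron median was 0.10 with the libraries of high share alone and -0.09 with replicate 4 alone, and the red cell median -0.23 and 0.26. Without Del/+ replicate 2 the microglial median was -0.08 and the red cell median -0.04. Csf1r, the growth factor receptor of microglia, was at -0.17 (adjusted p = 0.123), Gfap of astrocytes at -0.11 (adjusted p = 0.593) and Gad1 of interneurons at 0.12 (adjusted p = 0.284).

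**Figure D4:**
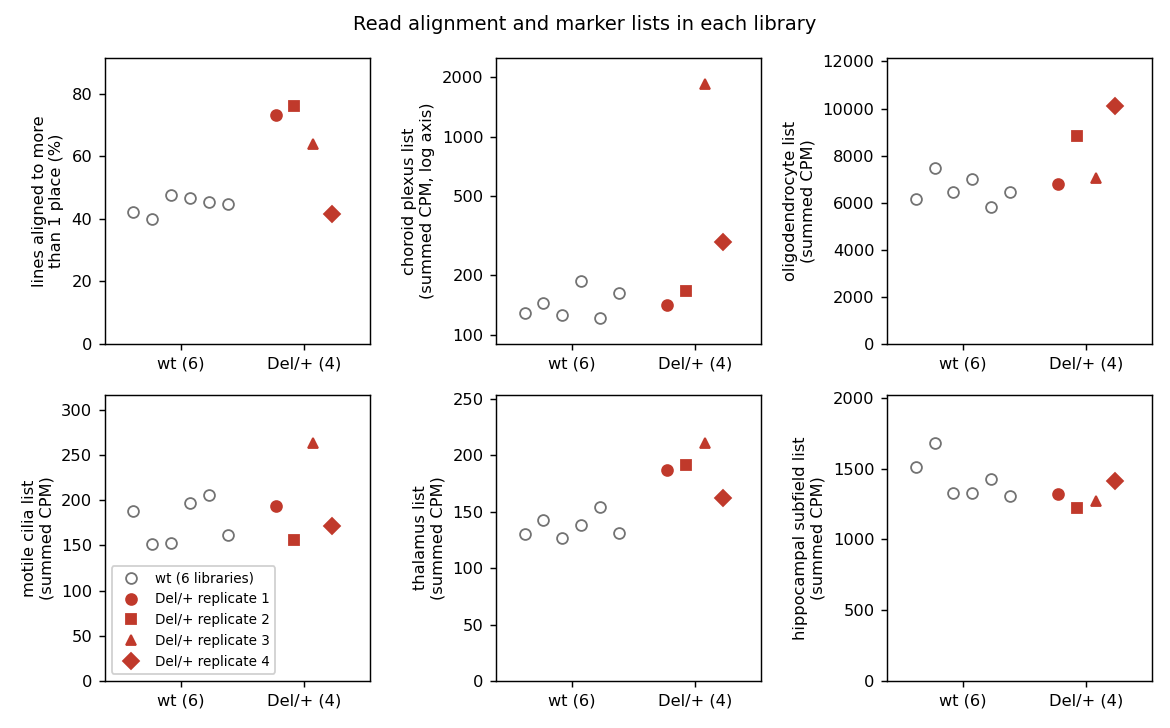
Share of alignment lines with more than 1 place (percent) and summed CPM of 5 marker lists in each library, wt as open circles and Del/+ replicates 1 to 4 as red symbols; the choroid plexus panel has a log axis. Del/+ replicate 3 is highest for the choroid plexus with replicate 4 next and also above wt, replicate 4 is highest for oligodendrocytes and at the wt level for alignment, and all Del/+ libraries exceed wt for the sum of the thalamus list. That list was drawn up after the values were seen, and its median gene was below wt in replicate 4 (-0.09, log2 against the wt mean).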

How the data were processed

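Hippocampal RNA was sequenced as single-end reads on an Illumina HiSeq. Per the labels, libraries were made from ribosome-depleted, stranded total RNA, whereas the molecule field names polyA RNA. The authors aligned reads with HISAT2 to rn6 and counted them with HTSeq on Ensembl annotation, so the deposited values are raw counts per gene with no normalization; the submitters' processing notes also name bcl2fastq 2.17.1.14 and R 3.6. The 5 summary lines of each table were left out of depths and tests. Groups came from the description field. Members and gene lists were chosen with earlier results of these data known.

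Counts of 19 libraries were fitted with edgeR 4.0.16 (R 4.3.3; filterByExpr, TMM, glmQLFit and glmQLFTest, 1 mean per group), and the contrast was Del/+ minus wt. Adjusted p is Benjamini-Hochberg. Log2 fold changes carry a prior count of 2, and SE and 95% intervals come from the fit without it; the intervals cover error between these samples. The script was tested on simulated data with known changes. DESeq2 1.42.0 and the settings described at the end were alternatives; the rank method of the study (FCROS) was not used here. Named genes were all interval genes; outside it, among called genes with a gene name, the 12 higher and the 12 lower with the smallest adjusted p and the 4 of that kind without a gene name; and, of each list, its called members and the 3 with the highest wt level. Other genes were named after their values were seen: neighbours of the interval and members of pathway and marker lists with an unadjusted p under 0.05. Gene symbols of 13714 of the 15440 tested genes (88.8%) matched the RefSeq GRCr8 table, used for gene order only. No same-group libraries agreed within sampling noise (chi-square per degree of freedom at least 3.46). Some genes that the naming rule selects are not reported here.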

Additional observations from a re-analysis of the deposited data

Results flagged for a closer look

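Of 162 groups of values examined for a sample far from the others (library measures, list sums and 56 named genes, in wt and in Del/+), 9 held one, and chance gives about 1 in 20. In Del/+ replicate 3 the choroid plexus list summed to 1844 CPM, with the next Del/+ library at 296 CPM. The same library was the lowest of Del/+ for Slx1b (11.7 CPM, next 12.95 CPM) and for Asphd1 (7.37 CPM, next 7.54 CPM), both differences small beside the distance to wt. Among wt libraries, replicate 4 was low for the ERK cascade list (3905 CPM, next 4179 CPM) and for vessels and meninges (311 CPM, next 364 CPM). Replicate 5, the library with conflicting labels, was high for activity genes (722 CPM, next 566 CPM) and for AABR07015081.2 (2559 CPM, next 1204 CPM). Replicate 2 was high for cholesterol synthesis (2278 CPM, next 2125 CPM) and replicate 6 low for Taok2 (213 CPM, next 221 CPM).

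The lines left out of the gene counts also differed between libraries. The share aligned to more than 1 place reached 76.3% in Del/+, against at most 47.6% in wt. In Del/+ replicate 4 it was 41.6%, inside the wt range.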

How the results depend on the processing

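The interval result kept its direction and size in all 31 alternatives: 18 to 26 genes were called, and the median log2 fold change lay between -1.04 and -0.97. The 18 came from DESeq2, which gave an adjusted p to 18 of the 28 interval genes and called each of them. Counts over all genes and outside the interval moved, in total 119 and 93 as reported. They were 641 and 623 by DESeq2, 52 and 27 with the Del/+ libraries of high multiple-alignment share alone, and 80 and 61 with replicate 4 alone. A term for that share gave the same 80 and 61, since only Del/+ holds libraries of both kinds. With wt replicate 5 counted as Dup/+ there were 81 and 56. Covariates added after the data were seen gave 53 and 28 (Ttr) and 35 and 12 (Mbp). The 10 libraries alone gave 156 and 131, DESeq2 size factors 118 and 92, library size alone 112 and 87, and no filter 108 and 82. The causes were not tested.

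Leaving out 1 of the 19 libraries gave 46 to 337 called genes, 20 to 311 outside the interval; leaving out Dup/+ or Del/Dup libraries was added after the data were seen. The total rose by over 1.5 times without Del/Dup replicate 2 (337), Del/Dup replicate 3 (281) or Del/+ replicate 1 (261). It fell as far without Del/+ replicate 2 (46) or 4 (52) and without wt replicate 3 (54), 1 (61), 2 (68) or 5 (79). With the replicate number as a block (replicate block) 72 genes were called, 47 of them outside the interval. Over all genes, same-numbered wt and Del/+ libraries did not deviate together (r between -0.06 and 0.09). Such a measure cannot exclude that equal numbers mark paired samples.

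Of the 93 genes outside the interval, 11 were called whichever wt or Del/+ library was left out and 3 in every alternative that gave them a value (AABR07070225.1 had no adjusted p from DESeq2). With Del/+ replicate 4 alone, or with the term for alignment share, 3 genes chosen after their values were seen reversed: AABR07052744.1 (-0.13), LOC100910882 (-0.10) and AABR07015078.1 (-0.42).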
